A study of Gallus gallus with 2 samples.

Results

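Expression of translation initiation and elongation factor genes was examined in chicken cells labelled as spermatogenic stem cells (SSCs) after interference with LSD1. The genes are those whose listed name starts with EIF or EEF followed by a digit, which holds for 48 of the 26656 genes in the deposited tables. Of these names, 46 are current symbols in RefSeq (assembly GRCg7b) and 2 are synonyms: EIF1AY stands for EIF1AX, and EIF2B stands for EIF2S2, a subunit of eIF2 and not of the exchange factor eIF2B. In the shLSD1 library, the cells had received an interference construct against LSD1, a histone H3K4 demethylase. The Blank library, read as untreated from its title and treatment label, came from the same kind of cells without a control vector being described. Both were cultured cells freed by enzymes from testes at 18.5 days of incubation, with no strain named. With 1 library in each group, the spread between replicates is unknown, and transfection, interference and differences between preparations cannot be told apart.

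Initiation brings the small ribosomal subunit and the initiator tRNA to the start codon of an mRNA. The GTP-bound factor eIF2 delivers the initiator tRNA, the multi-subunit factor eIF3 holds the complex on the small subunit, and the eIF4 group recognizes the cap and unwinds the leader. During elongation, eEF1A delivers each aminoacyl-tRNA, the eEF1B subunits reload eEF1A with GTP, and eEF2 moves the ribosome along the mRNA. Phosphorylation of eIF2 by stress kinases and of the 4E-binding proteins by mTOR are the best known controls of the rate of initiation.

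Reads on listed genes summed to 8245826 in shLSD1 and 8731455 in Blank. LSD1 itself (listed as KDM1A) had 0 reads in each library and lies under a model assembled by the authors that also had 0 reads, so the interference was not checked in these counts. A count of 0 allows up to 3 reads, or 0.364 CPM (reads per 1000000 reads of the library) in shLSD1 and 0.344 CPM in Blank. Of 10 germ cell genes matched, 2 reached 20 reads in sum, DDX4 (11 reads in shLSD1 and 23 in Blank) and TDRD9 (7 and 17), and NANOG was at 0. Summed over each list, germ cell genes had 42 reads in shLSD1 and 69 in Blank, Sertoli genes 2002 and 1664, Leydig genes 517 and 696, and peritubular and fibroblast genes 4710 and 6101, nearly all of the last from LUM. These sums leave out assembled models over marker genes, which held 250 reads in shLSD1 and 309 in Blank over the germ cell gene SYCP3, 153 and 191 over the Sertoli gene AMH, and 7199 and 9908 over the fibroblast gene DCN. The other 9 matched germ cell genes have no such model and were at or near 0 in cells labelled SSC. The values below belong to the whole cell preparation. In such a bulk library, fewer cells of a type and less RNA per cell cannot be told apart.

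The translation factor genes together took 80990 reads in shLSD1, 0.982% of the library, and 90191 reads in Blank, 1.03% of the library. The log2 ratio of shLSD1 to Blank for this sum was -0.07, with an exact (Clopper-Pearson) 95% interval of -0.09 to -0.06. Such intervals, here and below, cover counting error only and not the spread between libraries. Copies made by PCR are counted as separate reads, so the intervals may be too narrow even for counting error. The 6 genes with the most reads, EEF1B2, EIF2S3, EIF1, EIF3H, EIF3L and EIF3E, held 65.9% of the reads in shLSD1 and 66.5% in Blank. At the other end, 12 genes had no read in either library and another 12 had 1 to 19 reads over both. The remaining 24 genes reached 20 reads in sum, the minimum used for a ratio.

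Differences between the libraries were small. Of these 24 genes, 1 was at least 1.5-fold higher in shLSD1, against 7.04% of the 12081 genes with at least 20 reads. At least 1.5-fold lower were 0 of the 24, against 6.38% of all such genes. The log2 ratio, taken with a prior count of 0.5, was below 0 for 17 of the 24 genes, against 51.6% of all genes, and its median was -0.10, against -0.01 for all genes. The counting interval lay below 0 for 7 genes and above 0 for 3, against 15.4% and 12.9% of all genes. Because deep counts narrow the interval, the same was read among genes with at least 1000 reads: the interval lay below 0 for 7 of 17 and above 0 for 2 of 17, against 28.4% and 23.0% of 2929 genes. The 17 ratios ran from -0.37 to 0.08 on the log2 scale with a median of -0.04, against -0.01 for the 2929 genes, none of the 17 was 1.5-fold apart, and of all 2929 genes 0.751% were so much higher and 0.546% so much lower. For the 24 genes, the balance of intervals depended on the scaling. With edgeR's TMM 5 intervals lay above and 7 below 0, and with upper-quartile scaling 6 lay above and 7 below. With DESeq2's size factors 2 lay above and 8 below. A scaling shifts the ratio of every gene alike, and the shares of all genes were not taken under these scalings.

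**Figure D1:**
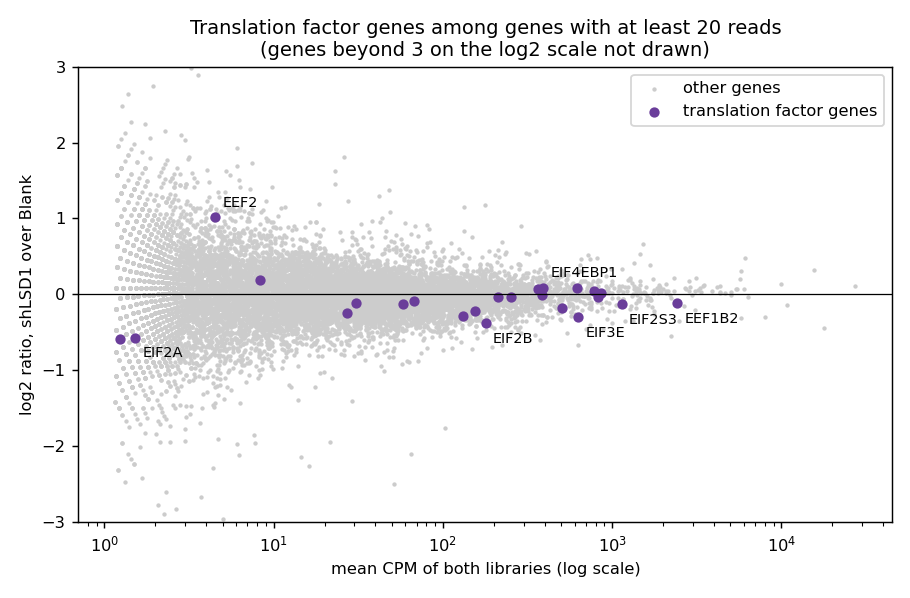
Mean CPM of both libraries (horizontal, log scale) against the log2 ratio of shLSD1 to Blank (vertical) for each gene with at least 20 reads; the 24 translation factor genes are coloured and the other genes grey. Most coloured points lie just under 0, EEF2 stands at 1.01, and the most abundant, EEF1B2, at -0.11.

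Per length of gene model, the levels spanned a wide range. The deposited FPKM scales reads by gene length and library size, so genes with no assembled model over them can be compared on it. The ranks also take in the 28 genes under an assembled model, where a low FPKM cannot be read as low expression. EEF1B2 ranked first of the 48 genes in each library, with 1754 FPKM in shLSD1 and 1889 in Blank, which placed it 59th and 54th among all listed genes. EIF3H (656 FPKM in shLSD1 and 673 in Blank) and EIF2S3 (606 and 660) followed, and EIF4EBP1 came next with 513 and 485. The order of the first 4 was the same in both libraries. Below them, EIF3L had rank 5 in shLSD1 and 7 in Blank, and EIF3E rank 6 in shLSD1 and 5 in Blank. With 1 library each, the spread of these levels is unknown, and no neighbours in the order can be said to differ beyond it.

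**Figure D2:**
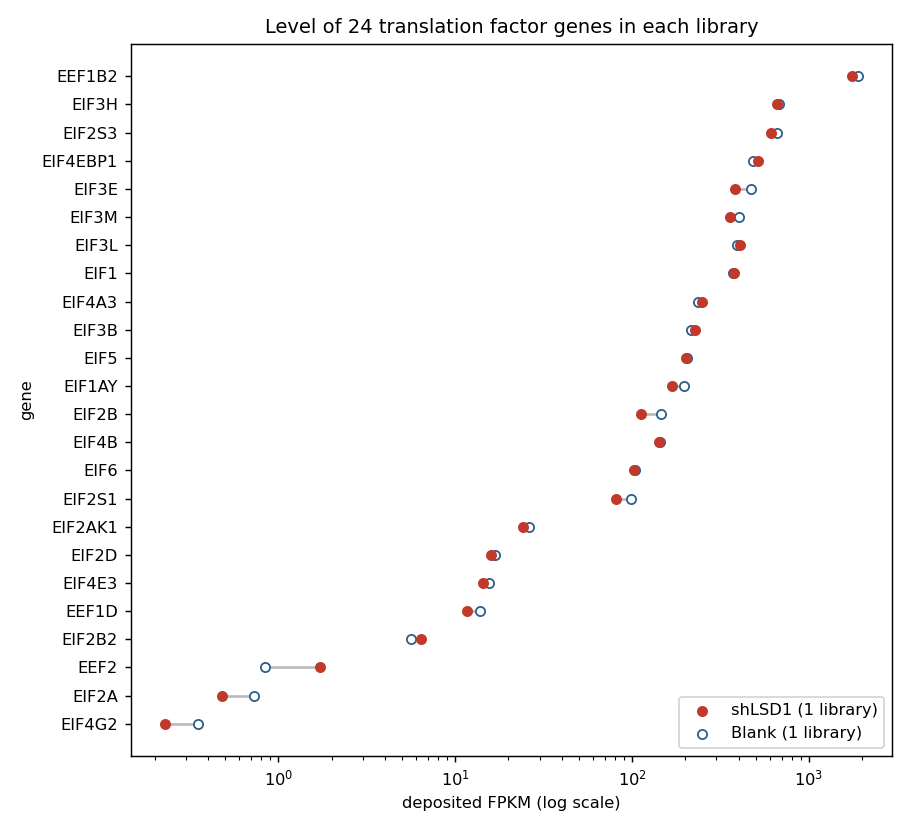
Deposited FPKM (horizontal, log scale) of the 24 translation factor genes with at least 20 reads, filled points for the shLSD1 library and open points for the Blank library. The points of a gene nearly coincide from EEF1B2 at the top (1754 and 1889 FPKM) down to EIF2B2. They stand apart for EEF2 (1.72 and 0.842), EIF2A (0.483 and 0.729) and EIF4G2 (0.229 and 0.351), which have few reads and lie under assembled models.

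The 3 subunits of eIF2 were all lower in shLSD1, each with an interval below 0, as 28.4% of all genes with at least 1000 reads had. EIF2B, the β subunit by its RefSeq name (chromosome 20 from 1976105 to 1987323, plus strand, in the coordinates of the files, which name no genome build), had 1287 reads in shLSD1 and 1767 in Blank, or 112 and 145 FPKM. Its log2 ratio of -0.37 (-0.48 to -0.27) was the lowest among translation factor genes with at least 100 reads. EIF2S1, the α subunit that stress kinases phosphorylate (chromosome 5 from 28235901 to 28245721, minus strand), had 976 reads in shLSD1 and 1254 in Blank, a log2 ratio of -0.28 (-0.40 to -0.16) at 81.4 and 98.6 FPKM. EIF2S3, the γ subunit that binds GTP and the initiator tRNA (chromosome 1 from 117665342 to 117678363, minus strand), had 9012 reads in shLSD1 and 10402 in Blank, a log2 ratio of -0.12 (-0.17 to -0.08). The interval of EIF2S3 does not meet that of EIF2B. Although the 3 proteins form a 1 to 1 complex, the FPKM of EIF2S3 was 7.45 times that of EIF2S1 in shLSD1 and 6.69 times in Blank. None of these 3 genes is covered by another model.

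Factors related to eIF2 showed no interval apart from 0. EIF2D, which can bring tRNA to the small subunit outside the usual route, had 537 reads in shLSD1 and 606 in Blank, or 15.8 and 16.8 FPKM, a log2 ratio of -0.09 (-0.26 to 0.08). EIF2A, another factor that binds initiator tRNA, had 10 and 16 reads (-0.57, -1.90 to 0.63), but a model assembled over it had 86 and 78, and the sum gave 0.11 (-0.31 to 0.54). Of the exchange factor eIF2B, which reloads eIF2 with GTP, EIF2B2 had 73 reads in shLSD1 and 68 in Blank (0.18, -0.31 to 0.68). EIF2B5 had 3 reads in each library, but the model over it, of which the gene fills 91.5%, had 263 and 308, and the sum gave -0.14 (-0.38 to 0.10). EIF2B1, EIF2B3 and EIF2B4 had no reads, and at most 1 in a library on their models. Among the kinases that phosphorylate eIF2, EIF2AK1, the kinase activated by lack of haem, had 457 reads in shLSD1 and 527 in Blank (-0.12, -0.31 to 0.06). EIF2AK3, the kinase of the unfolded protein response, had 6 and 3 reads, and EIF2AK4, the kinase activated by uncharged tRNA, 1 and 0. EIF2AK2, the kinase activated by double-stranded RNA, had 0 in each. These 3 kinase genes lie under assembled models. The model over EIF2AK3 had 37 reads in shLSD1 and 36 in Blank, that over EIF2AK4 307 and 367, and that over EIF2AK2 3 and 5.

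**Figure D3:**
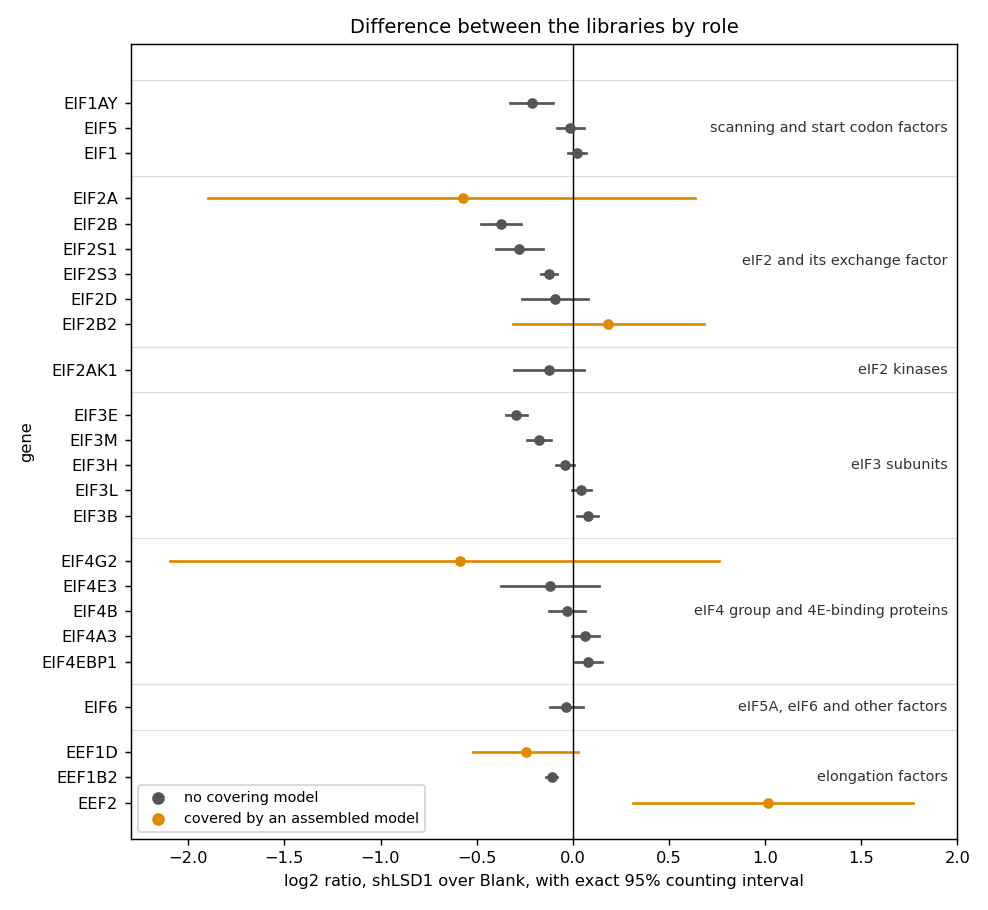
Log2 ratio of shLSD1 to Blank (points) with its exact 95% counting interval (lines) for the 24 genes with at least 20 reads, grouped by role; orange marks genes covered by a model the authors assembled. Of the 7 intervals below 0, 3 are the eIF2 subunits EIF2B, EIF2S1 and EIF2S3, and the wide intervals belong to genes with few reads.

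By counting error alone, the subunits of eIF3 did not share 1 ratio. Of the 10 listed by name, 5 had at least 1000 reads and the other 5 had under 20. Among the 5 with at least 1000 reads, the interval lay below 0 for 2 and above 0 for 1. The shares of all genes at that depth were 28.4% and 23.0%. EIF3E (chromosome 2 from 131405148 to 131425618, minus strand) had 4685 reads in shLSD1 and 6083 in Blank, or 384 and 470 FPKM, a log2 ratio of -0.29 (-0.35 to -0.24). EIF3M (chromosome 5 from 5539086 to 5553393, plus strand) had 3907 and 4672 reads, or 356 and 401 FPKM, a ratio of -0.18 (-0.24 to -0.11). Both are PCI-domain subunits of the core of eIF3. The subunit EIF3L, also of the PCI type, had 6550 reads in shLSD1 and 6725 in Blank, or 406 and 393 FPKM, and a ratio of 0.045 (-0.0048 to 0.094) whose interval holds 0. EIF3H, an MPN-domain subunit, had 6683 and 7278 reads (-0.040, -0.089 to 0.0076). EIF3B, the scaffold of the peripheral part of eIF3 (chromosome 14 from 3105518 to 3121660, plus strand), had 5266 and 5283 reads, or 227 and 214 FPKM, and its ratio of 0.08 lay just above 0 (0.02 to 0.13). The interval of EIF3E ended close to where that of EIF3M began, and lay below those of EIF3H, EIF3L and EIF3B. A gene without a name in the files, described there as EIF3 subunit F, had 3238 reads in shLSD1 and 3650 in Blank (-0.09, -0.16 to -0.02). That gene was at 88.1 FPKM in shLSD1 and 93.6 in Blank. Among the 5 named subunits with at least 1000 reads, FPKM spanned 2.89-fold in shLSD1 and 3.14-fold in Blank, from EIF3B to EIF3H. Of the remaining subunits, EIF3A had 7 and 4 reads, EIF3K 8 and 6, and EIF3D, EIF3I and EIF3J none.

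Of the 3 genes for scanning and start codon selection with at least 20 reads, 1 had an interval apart from 0. Among all genes with at least 1000 reads, 28.4% had an interval below 0 and 23.0% above 0. EIF1AY (chromosome 1 from 119243266 to 119250553, plus strand), which with EIF1 keeps the small subunit scanning, had 1188 reads in shLSD1 and 1459 in Blank, or 169 and 196 FPKM, a log2 ratio of -0.21 (-0.33 to -0.10). EIF1, which guards against starting at other codons, had 7192 and 7501 reads, or 377 and 371 FPKM, a ratio of 0.022 (-0.025 to 0.069). The model of EIF1 spans 138265 bases of chromosome 27 and holds keratin genes on the other strand, KRT19 among them with 328 reads in shLSD1 and 229 in Blank. Whether strand was used in counting is not given in the sources used here, so reads of EIF1 and of those genes may not be separable. EIF5, the GTPase activator of eIF2, had 3179 and 3399 reads, or 203 and 204 FPKM (-0.014, -0.084 to 0.056). The paralog EIF1B and the subunit-joining GTPase EIF5B had no reads.

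In the eIF4 group, the members with at least 1000 reads differed little between the libraries. EIF4EBP1, the inhibitor that holds the cap-binding protein until mTOR phosphorylates it (chromosome 22 from 2245549 to 2249847, plus strand), had 3313 reads in shLSD1 and 3318 in Blank, or 513 and 485 FPKM, a log2 ratio of 0.08 (0.01 to 0.15). That interval no longer lay above 0 with DESeq2's size factors, where the ratio was 0.068. EIF4A3, the helicase of the exon junction complex, had 3097 and 3134 reads, or 249 and 237 FPKM (0.065, -0.0067 to 0.14), and EIF4B, a helper of the eIF4A helicase, had 1738 and 1878 reads, or 142 and 145 FPKM (-0.03, -0.12 to 0.07). Both intervals held 0, but that of EIF4A3 lay above 0 with edgeR's TMM (0.0048 to 0.15) and with upper-quartile scaling (0.019 to 0.16). EIF4E3, a cap-binding paralog, had 242 and 278 reads (-0.12, -0.37 to 0.14). The central members of the cap-binding complex had few reads on the genes themselves. EIF4E, the cap-binding protein, had 2 reads in shLSD1 and 4 in Blank, and the helicase EIF4A2 had none. The scaffold EIF4G1 had 0 and 1 reads, and the scaffold EIF4G3 1 and 2. Each of these genes lies under an assembled model, so a low count cannot be read as low expression. The model over EIF4G3, of which the gene fills 72.9%, had 431 reads in shLSD1 and 512 in Blank. Gene and model together gave -0.17 (-0.36 to 0.02). The model over EIF4E had 87 and 141 reads, that over EIF4G1 60 and 52, and that over EIF4A2 3 and 5. EIF4G2, a scaffold that does not bind EIF4E, had 8 reads in shLSD1 and 13 in Blank (-0.58, -2.09 to 0.76), just short of 1.5-fold lower. EIF4H had 2 and 5 reads, EIF4E1B and EIF4ENIF1, an EIF4E transporter, each 0 and 1, and EIF4E2 none. EIF6, which keeps the ribosomal subunits apart, had 2072 reads in shLSD1 and 2247 in Blank, or 102 and 105 FPKM (-0.03, -0.12 to 0.05), and EIF5A2 had 8 and 7 reads.

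Among elongation factors, the interval of EEF1B2 lay below 0. That of EEF2, a gene with few reads under an assembled model, lay above 0. EEF1B2, a nucleotide exchange subunit for eEF1A (chromosome 7 from 12072509 to 12076665, minus strand), had 19226 reads in shLSD1 and 21964 in Blank, a log2 ratio of -0.11 (-0.14 to -0.08). EEF1D, another exchange subunit, had 204 and 256 reads, or 11.7 and 13.8 FPKM (-0.24, -0.52 to 0.03). EEF2, the translocase (chromosome 28 from 1438607 to 1446530, plus strand), had 50 reads in shLSD1 and 26 in Blank, or 1.72 and 0.842 FPKM, a ratio of 1.01 (0.31 to 1.77). It was the single translation factor gene at least 1.5-fold apart among those with at least 20 reads. An assembled model over the same stretch had 2 reads in shLSD1 and 5 in Blank, and the sum of gene and model gave 0.82 (0.16 to 1.52). The kinase of EEF2, EEF2K, had no reads. The partner eEF1A falls outside the name rule: of 2 genes named EF1A, the one described as elongation factor 1-alpha 1 had 0 reads in shLSD1 and 2 in Blank, and the other had 39 and 43. The gene described as elongation factor 1-alpha 1 lies under an assembled model with 0 reads in shLSD1 and 3 in Blank. Its low count cannot be read as low expression.

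Low counts went together with the presence of a model assembled by the authors on the same strand. Such a model covered at least 50% of 28 of the 48 genes, against 42.6% of 15508 protein-coding genes. Of the 28 covered genes, 23 had under 20 reads, and the highest, EEF1D, had 460 over both libraries. Of the 20 genes with no such cover, 1 had under 20 reads (EIF4E1B), and the median was 6404.5 reads. Over all protein-coding genes, 90.5% of 6600 covered genes and 41.6% of 8908 others had under 20 reads. All 12 genes at 0 in both libraries were covered. How the counting treated reads that fall on a gene and on a model was not given in the sources used here, so a low count among these genes cannot be read as low expression.

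The covering models held reads for many of these genes. The model held more reads than the gene in 20 of 28, fewer in 5 and as many in 3. Over EIF4G2 the model had 1122 reads in shLSD1 and 1411 in Blank, over EIF5A2 971 and 1136, over EEF2K 756 and 902, and over EIF4H 556 and 532. Some models run past the gene: the named gene fills 17.9% of the model over EIF3J, 27.5% of that over EIF3I, 41.7% of that over EEF2K and 44.8% of that over EIF5A2, so those reads may come from a neighbour. For EIF4E, which fills 94.4% of its model, the model had 87 reads in shLSD1 and 141 in Blank, and the sum of both gave a log2 ratio of -0.62 (-1.02 to -0.23). For EIF4ENIF1, which fills 92.1%, the model had 112 and 186 reads and the sum gave -0.65 (-1.01 to -0.31). These 2 of 16 sums were more than 1.5-fold lower in shLSD1, against 3.19% of such sums over all covered protein-coding genes. The scaffold EIF4G1, filling 97.7%, had 60 and 52 model reads and a sum at 0.26 (-0.30 to 0.82), the sum for EIF4G2 stood at -0.25 (-0.37 to -0.14), and that for EIF4H at 0.14 (-0.04 to 0.31). Of the 16 covered genes with at least 100 reads in the sum, 12 had a ratio below 0, against 57.7% of 3572 covered protein-coding genes with such a sum. The interval lay below 0 for 6 and above 0 for 0, against 21.7% and 12.7%, and the median was -0.16. Of these 6, 3 (EEF2K, EIF3J and EIF5A2) rest on models of which the gene fills under 50%. For EIF2AK4, the amino acid sensing kinase, the model had 307 reads in shLSD1 and 367 in Blank, for EIF1B 342 and 365, for EIF3I 214 and 242, and for EIF3J 152 and 201. The sum for EIF2AK4 stood at -0.17 (-0.39 to 0.05). Gene and model were both at 0 for EIF2B3, EIF2B4 and EIF3D. The model held 1 read in each library for EIF2B1, 4 in each for EIF5B and 6 in each for EIF4E2, and 3 in shLSD1 against 5 in Blank for EIF4A2 and for EIF2AK2.

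**Figure D4:**
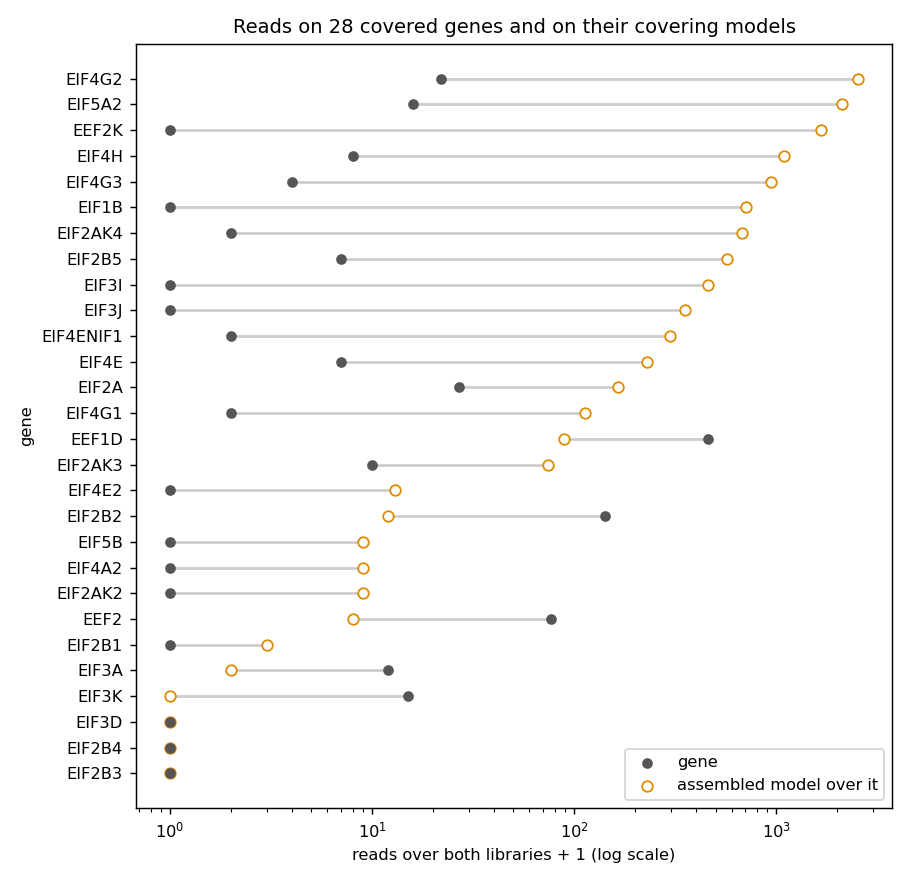
Reads over both libraries plus 1 (horizontal, log scale) for the 28 translation factor genes covered by an assembled model, filled points for the gene and open points for the model over it. In 20 of 28 the model lies to the right, by the widest gaps for EEF2K, EIF1B and EIF3I with 0 reads on the gene, and EEF1D, EIF2B2, EEF2, EIF3A and EIF3K lie the other way.

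Translation factor genes also contain small nucleolar RNA (snoRNA) genes, which are processed from introns and guide the modification of other RNAs. On the same strand, 13 snoRNA genes lie inside 7 of the 48 genes, and 7 of them had at least 20 reads. In EIF4A2 (chromosome 9 from 15671724 to 15678579, plus strand), SNORA81 had 28 reads in shLSD1 and 81 in Blank, a log2 ratio of -1.43 (-2.12 to -0.81), and SNORA4 had 4 and 32, a ratio of -2.77 (-4.88 to -1.42). Others in the same gene did not move that way: SNORD2 had 24 reads in shLSD1 and 14 in Blank (0.84, -0.15 to 1.92) and SNORA63 had 11 and 10 (0.21, -1.15 to 1.61). SNORA28, in EIF5, had 19 and 56 reads (-1.45, -2.31 to -0.70), while EIF5 itself stood at -0.014. SNORD97 in EIF4G2 had 35 and 39 reads (-0.07, -0.77 to 0.62) and SNORA41 in EEF1B2 had 12 and 18 (-0.48, -1.69 to 0.63). Of the 7, 3 were at least 1.5-fold lower in shLSD1, against 45.7% of 35 snoRNA genes with at least 20 reads, of which 85.7% had a ratio below 0. The share inside translation factor genes is near that of the other snoRNA genes, of which 13 of 28 were so much lower.

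**Figure D5:**
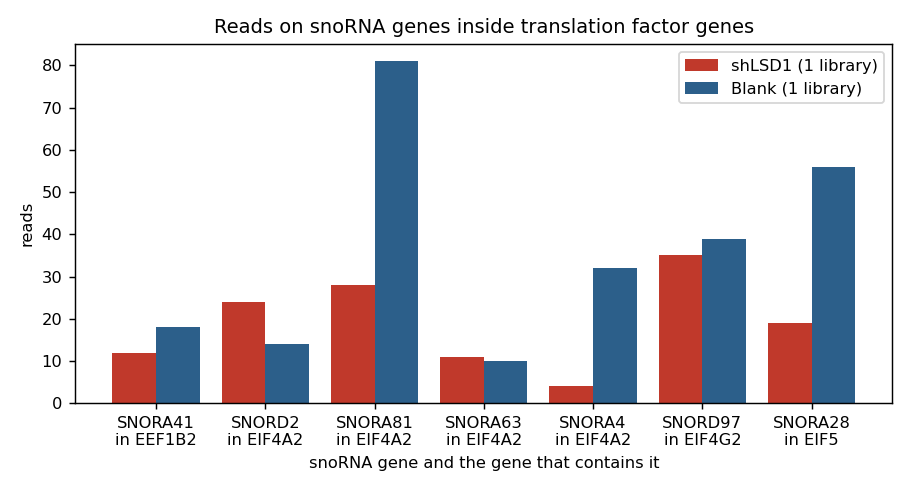
Reads (vertical) of the 7 snoRNA genes with at least 20 reads that lie inside translation factor genes, shLSD1 at the left and Blank at the right of each pair. SNORA81 (28 and 81 reads), SNORA4 (4 and 32) and SNORA28 (19 and 56) are lower in shLSD1, and the other 4 pairs lie closer.

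Genes that work beside these factors were read from 6 lists; the median over all genes was -0.01. Factors of termination and ribosome recycling lay on the lower side in shLSD1, with a median of -0.24. A ratio below 0 was found for 6 of 6, against 51.6% of all genes with at least 20 reads. An interval below 0 was found for 5, against 15.4%. Most of these genes had at least 1000 reads, and at that depth 28.4% of all genes had an interval below 0. HBS1L, which rescues stalled ribosomes, had 380 reads in shLSD1 and 610 in Blank (-0.60, -0.79 to -0.41), and ABCE1, which splits the subunits after termination, had 605 and 804 (-0.33, -0.48 to -0.17). HBS1L was the single gene of these 6 at least 1.5-fold lower, against 6.38% of all genes with at least 20 reads. Among genes with at least 100 reads, as all 6 had, 206 of 8277 were so much lower. The release factors ETF1 (1734 and 2007 reads, -0.13, -0.22 to -0.04) and GSPT1 (1935 and 2291, -0.16, -0.25 to -0.07) were nearer to 0.

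The list around the eIF2 phosphatase and the transcription factor ATF4, whose mRNA is translated more when eIF2 is phosphorylated, was split. ATF4 itself was higher, with 12850 reads in shLSD1 and 12009 in Blank (0.18, 0.14 to 0.22). Of the other readable members, 5 had an interval below 0: PSAT1 of serine synthesis had 615 and 1087 reads (-0.74, -0.88 to -0.60), the cystine carrier SLC7A11 had 224 and 361 (-0.60, -0.85 to -0.36), asparagine synthetase ASNS 3591 and 4514 (-0.25, -0.31 to -0.18), PHGDH of serine synthesis 13560 and 16640 (-0.21, -0.25 to -0.18), and PPP1CB, a catalytic subunit of the phosphatase, 2667 and 3063 (-0.12, -0.19 to -0.04). ATF3, a transcription factor, had 381 and 371 reads (0.12, -0.09 to 0.33) and PPP1R15B, a regulatory subunit of the phosphatase, 65 in each (0.08, -0.44 to 0.60). The assembled model over PPP1R15B had 158 reads in shLSD1 and 137 in Blank. SESN2 had 7 and 3 reads with 48 and 33 on the model over it, and VLDLR 1 and 2 with 60 and 58. CHAC1 and its model had none. Model reads are left out of the counts that follow. Of 8 genes with at least 20 reads, the interval thus lay below 0 for 5 and above 0 for 1. The shares of all such genes were 15.4% and 12.9%, and the median of the 8 was -0.16. PHGDH, ATF4, ASNS, PPP1CB and PSAT1 had at least 1000 reads, and among all genes at that depth the shares were 28.4% and 23.0%. PSAT1 and SLC7A11 were at least 1.5-fold lower, against 6.38% of all genes with at least 20 reads, and none of the 8 was so much higher. Such a difference is rarer at depth. Among genes with at least 100 reads, 206 of 8277 were so much lower, and among those with at least 1000 reads 0.546%.

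Other lists held fewer readable genes. In the mTOR arm 4 of 9 had at least 20 reads, with a median of -0.09: RPS6KB2, an S6 kinase, was higher (443 reads in shLSD1 and 343 in Blank, 0.45, 0.25 to 0.66), and MKNK2, a kinase of EIF4E, was lower (708 and 868, -0.21, -0.36 to -0.07). RPS6KB1, the other S6 kinase, stood at -0.07 (-0.23 to 0.09). Of the enzymes that modify EIF5A or EEF2, 3 of 8 had at least 20 reads, with a median of 0.08 and every interval holding 0. These were DPH2, DPH5 and DPH6, all for EEF2. Among them DPH6 had 126 reads in shLSD1 and 106 in Blank (0.33, -0.05 to 0.72). DOHH, which modifies EIF5A, had no reads, and the model over it had 7 in shLSD1 and 10 in Blank, so no enzyme for EIF5A could be compared. Of the cap and poly(A) partners 2 of 10 had at least 20 reads. Of these, the RNA helicase DDX3X was at least 1.5-fold higher, against 7.04% of all genes with at least 20 reads. It had only 21 reads in shLSD1 and 10 in Blank (1.12, 0.0033 to 2.40), and the assembled model over it had 1 in each. DDX3X was named after its values were seen. Of the mitochondrial translation factors 1 of 7 had at least 20 reads. The poly(A)-binding protein PABPC1 had no reads, while the model over it had 2796 in shLSD1 and 2701 in Blank. Of the 9 cap and poly(A) partners under a model, only PABPC1 had more model reads in shLSD1, before scaling. The model over LARP1 had 2632 reads in shLSD1 and 2971 in Blank, that over LARP4 752 and 909, and that over PDCD4 306 and 406.

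Cell type genes differed by as much as the translation factor genes. LUM had a log2 ratio of -0.29 (-0.35 to -0.23), close to that of EIF3E. CLDN11, a Sertoli gene, had 1544 reads in shLSD1 and 1255 in Blank (0.38, 0.27 to 0.49), the highest ratio of its list. Of the other Sertoli genes, DMRT1 also lay above 0, at 0.29 (0.07 to 0.51). FSHR stood at 0.05 with an interval that holds 0 (-0.43 to 0.52). AMH had no reads, and the model over it had 153 in shLSD1 and 191 in Blank. The part of such differences in the values above was not tested. A ratio between 1 shLSD1 and 1 Blank library compares those libraries only.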

How the data were processed

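RNA-seq libraries were made with a TruSeq kit from 1 µg of total RNA. The authors deposited read counts per gene without normalization and FPKM, which scale the counts by gene length and library size. No aligner or build for chicken was given in the sources used here; the submitters' processing notes name Bowtie 0.12.2 and mouse builds mm8 and mm9, which cannot be the source of chicken gene IDs. The authors' comparison table (adjusted counts, fold changes and p-values) and 4 columns of samples without a label here were not used.

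CPM and log2 ratios (shLSD1 over Blank, prior count 0.5) used the listed totals. Intervals are Clopper-Pearson 95% intervals of a gene's share of reads, converted with the totals. No p-value was computed, since each group has 1 library and a count test across samples needs replicates. A gene was compared where its reads in both libraries summed to 20 or more. A covering model is an assembled model on the same strand over at least 50% of the gene, a definition added after the data were seen.

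Every translation factor gene was named. Full values went to those with at least 1000 reads, to the 5 highest and 5 lowest ratios among those with at least 100 reads, and to genes at 0. The members and lists were chosen with earlier results of these data known. Listed symbols without a match were not analysed here. The lists were termination and ribosome recycling, cap and poly(A) partners, mTOR arm, eIF2 phosphatase and ATF4 targets, mitochondrial translation factors, and hypusine and diphthamide enzymes, beside germ cell, Sertoli, peritubular and fibroblast, Leydig, macrophage, endothelial and erythroid markers; summed reads of the last 3 were 191, 79 and 10 in shLSD1 and 183, 107 and 12 in Blank. The calculation was checked on simulated counts drawn with counting error only. That check cannot bear on PCR copies or on the spread between libraries. R 4.3.3, edgeR 4.0.16 and DESeq2 1.42.0 gave alternative scalings; other steps ran in Python 3.11.15 with scipy 1.17.1, numpy 2.4.6 and pandas 2.3.3, and plots were drawn with matplotlib 3.10.9.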

Additional observations from a re-analysis of the deposited data

How the results depend on the processing

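The median log2 ratio of the translation factor genes and that of their summed reads kept their sign under every setting run, the median lying between -0.11 and -0.040. Translation factor genes at least 1.5-fold higher in shLSD1 numbered 1, but 4 with a minimum of 1 read and 0 with at least 200 reads, with FPKM and a pseudocount of 1, with at least 1000 reads, or without covered genes. Those at least 1.5-fold lower numbered 0, but 1 with DESeq2's size factors, 6 with a minimum of 1 read, 2 with reads of models of at least 90% reciprocal overlap added, and 3 at a log2 threshold of 0.32. At that threshold 1997 of all 12081 genes with at least 20 reads were lower. Intervals above 0 numbered 3, but 5 with edgeR's TMM, 6 with upper-quartile scaling, and 2 with DESeq2's size factors, with at least 200 or 1000 reads, or without covered genes. Intervals below 0 numbered 7, but 8 with DESeq2's size factors and 9 with reciprocal models added. Apart from the log2 threshold of 0.32 and the minimum of 1000 reads, all genes were not counted under these alternative settings. The changed counts therefore cannot be set against a background. EIF3L and EIF4A3 gained an interval above 0 with TMM and upper-quartile scaling, and EIF1 with upper-quartile scaling; with DESeq2's size factors EIF3H gained one below 0 and EIF4EBP1 lost its own. The log2 ratio of EIF5 turned to 0.012 with upper-quartile scaling. Scalings shifted every log2 ratio by -0.01 to 0.03. Settings without covered genes, with at least 1000 reads, and the sum without EEF1B2 were chosen after the data were seen. FPKM and a prior count of 5 give no counting interval of their own, and for the sum FPKM was not run. No paired analysis was possible because shLSD1 and Blank are 1 library each. Depth limits genes under 20 reads to a statement of their counts.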
